A study of Mus musculus with 16 samples.

Results

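Glycogen is the branched glucose polymer in which the liver stores sugar. The genes described here make it, break it down or control those steps: Ugp2, Gys2, Gbe1, Pygl, Phka2, Phkg2, Ppp1r3b, Ppp1r3c and Gsk3b. Every probe set that the platform annotation assigns to 1 of these 9 gene symbols was taken, which gave 14 of 22626 probe sets and 8 of the 9 genes. Ugp2 had 5 probe sets, Ppp1r3c and Phka2 had 2 each, the other measured genes had 1 each, and Ppp1r3b was not measured here.

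The values came from 16 Affymetrix arrays of total liver RNA from male FvB/n mice, in 2 experiments of 8 arrays that each have their own scale. In the first experiment every mouse carried the high-expressing Ttr::Fv2E-Perk transgene, in which the transthyretin promoter drives, mainly in hepatocytes, a PERK kinase that the dimerizing drug AP20187 switches on. Livers of mice given AP20187 (n = 4) were set against untreated livers (n = 4), which the series' design text describes as mock-injected. The second experiment held HFD Alb::GC, HFD wildtype, LFD Alb::GC and LFD wildtype livers (n = 2 each), where HFD and LFD are a high and a low fat diet. Alb::GC mice express the C-terminal part of GADD34, which promotes dephosphorylation of eIF2 alpha, under the albumin promoter. The sources used here state no dose, time, age or length of feeding.

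In the liver, UDP-glucose pyrophosphorylase makes the activated glucose that glycogen synthase adds to the chain, and the branching enzyme introduces the branches. Glycogen phosphorylase releases glucose units and is switched on by phosphorylase kinase, a complex of several subunits. Glycogen-targeting subunits bring protein phosphatase 1 to the granule, where it activates the synthase and switches off the phosphorylase, while GSK3 kinases phosphorylate and inhibit the synthase. Synthesis is favoured after feeding and breakdown between meals.

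The promoters of 3 genes are printed because of their differences in the main fits. Ppp1r3c fell with AP20187 and with HFD, Gbe1 moved in opposite directions in those comparisons, and Pygl had 1 of the largest falls with AP20187. The AP20187 calls of Ppp1r3c and Gbe1 did not hold under every normalization, as given below. Each line gives the 250 bases before the annotated transcription start, read 5′ to 3′ on the gene's strand (RefSeq, GRCm38.p6), with motif matches in capitals.
Ppp1r3c (chr19:36736605-36736854, minus strand): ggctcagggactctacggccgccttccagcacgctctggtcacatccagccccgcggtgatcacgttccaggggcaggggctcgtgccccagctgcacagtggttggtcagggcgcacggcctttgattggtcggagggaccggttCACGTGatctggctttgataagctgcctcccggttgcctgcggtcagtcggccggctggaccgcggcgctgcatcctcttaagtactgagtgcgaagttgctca
Gbe1 (chr16:70313699-70313948, plus strand): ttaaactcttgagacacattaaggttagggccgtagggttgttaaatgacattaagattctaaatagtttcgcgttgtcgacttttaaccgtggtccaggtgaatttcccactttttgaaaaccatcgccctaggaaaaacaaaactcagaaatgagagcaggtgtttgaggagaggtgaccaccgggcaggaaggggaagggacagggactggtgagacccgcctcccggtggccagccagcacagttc
Pygl (chr12:70227684-70227933, minus strand): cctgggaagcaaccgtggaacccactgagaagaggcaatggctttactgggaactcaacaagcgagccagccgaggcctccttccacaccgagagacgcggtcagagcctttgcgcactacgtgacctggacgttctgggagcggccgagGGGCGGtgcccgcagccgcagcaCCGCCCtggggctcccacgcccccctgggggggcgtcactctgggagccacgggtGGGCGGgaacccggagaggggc

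RefSeq promoter entries matched 7 of the 9 genes, Gys2 and Ppp1r3b being the exceptions. Each window was searched on both strands for 4 motifs: TGATGNAA, the composite site of C/EBP and ATF factors; TGACGTCA, the cAMP response element; CACGTG, the E box; and GGGCGG, the GC box. The Ppp1r3c window held 1 E box, 104 to 99 bases before the start, a motif found in 6.02% of 32851 promoter windows of the same length. The Pygl window held 3 GC boxes, where 32.7% of windows held at least 1, and its GC content was 69.2%, against 64.4% in Ppp1r3c and 48.8% in Gbe1. The Gbe1 window held no match, and TGATGNAA (3.45% of all windows) and TGACGTCA (1.55%) matched no window of these genes. These matches describe letters and not binding.

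The deposited value of a probe set on an array is a linear ratio around 1, and what it was taken against is not stated by the labels. Ratios therefore compare arrays within an experiment and hold no level: they cannot rank genes, cannot show that a marker is absent, and give no check of the labelled tissue by level. Array medians lay between 0.94 and 1.02. In the AP20187 livers 11 of 11 probe sets of 8 genes of the integrated stress response were higher than in untreated livers (median log2 difference 3.71), the direction that the label of that group implies. The labels of the diet experiment also name activation of this response, by nutrient. There 1 of the 11 was higher in HFD than in LFD livers and 3 were lower, averaged over genotypes (median log2 difference -0.55). The source name of AP20187 replicate 4 gives no treatment and that of LFD wildtype replicate 2 names both genotypes, so their sample descriptions were followed and the main counts are also given without them. The labels do not say that arrays came from separate animals, so p-values measure the spread between these arrays, which may be technical. In whole liver, fewer cells of a type and less RNA per cell cannot be told apart.

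The first comparison asks how the glycogen genes differed between AP20187 and untreated livers. No mice without the transgene were given AP20187, so effects of PERK activation and of the drug itself cannot be told apart. Glycogen synthase mRNA rose in AP20187 livers, a 2.02-fold higher value of (ratio + 0.05). Phosphorylase, the branching enzyme, the targeting subunit Ppp1r3c and a probe set each of the phosphorylase kinase subunits Phka2 and Phkg2 fell. Of the 14 probe sets 2 rose and 9 fell (limma, Benjamini-Hochberg adjusted p under 0.05 over all probe sets), while the remaining 3 missed the threshold. AP20187 changed a large part of the array: 34.1% of all probe sets passed, 13.7% higher and 20.4% lower. The median log2 difference of the 14 was -0.37, against -0.13 over all probe sets. On 12 of the 14 the AP20187 and untreated arrays did not overlap, against 35.0% of all probe sets.

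**Figure D1:**
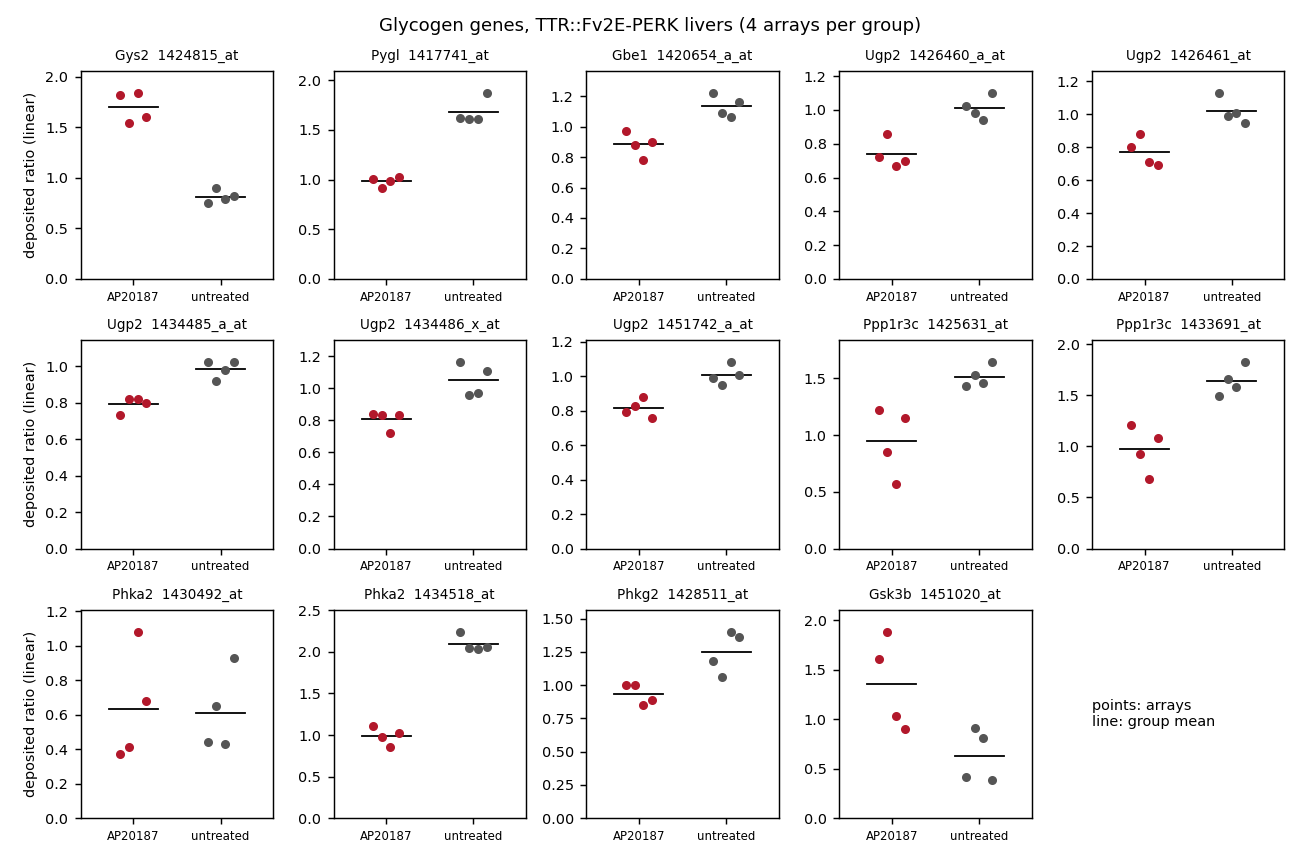
Deposited ratio (linear axis) of each glycogen probe set in AP20187 livers (left, n = 4) and untreated livers (right, n = 4), with points for arrays and a line for the group mean. Gys2 stands between 1.54 and 1.84 in AP20187 livers and between 0.75 and 0.90 in untreated livers, while Pygl and Phka2 1434518_at stand lower in AP20187 livers without overlap.

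On the synthesis side, Gys2, the liver isoform of glycogen synthase, had ratios of 1.82, 1.54, 1.84 and 1.60 in AP20187 livers, against 0.75, 0.90, 0.79 and 0.82 in untreated livers. Every AP20187 array was above every untreated array. The mean was 1.70 ± 0.152 in AP20187 livers and 0.815 ± 0.0635 in untreated livers (SD, n = 4 each), a log2 difference of 1.02 ± 0.09 (SE, limma, Benjamini-Hochberg adjusted p = 0.000183).

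Gbe1, the branching enzyme, went the other way. Its ratios were 0.97, 0.88, 0.78 and 0.90 in AP20187 livers, against 1.22, 1.09, 1.06 and 1.16 in untreated livers. The groups did not overlap, but the difference was small, at -0.34 ± 0.10 (log2, SE; limma, adjusted p = 0.0266). Its call ended without untreated replicate 1 or 4 or AP20187 replicate 2 or 4 (adjusted p 0.0511 to 0.0766) and after median centring (0.058) or quantile normalization (0.105).

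Ugp2, the pyrophosphorylase that makes UDP-glucose, was lower by a similar amount on each of its 5 probe sets. Its ratios lay between 0.67 and 0.88 in AP20187 livers and between 0.92 and 1.16 in untreated livers, with no overlap on any probe set. The log2 differences ran between -0.43 and -0.29, of which 3 passed and 2 did not (limma, adjusted p 0.0264 to 0.0553). The called Ugp2 probe sets were close to the threshold: 1426460_a_at lost its call without 5 of the 8 arrays in turn, and 1426461_at and 1434486_x_at each without 7 of the 8.

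On the breakdown side, Pygl, the liver glycogen phosphorylase, had ratios of 1.01, 0.91, 0.99 and 1.03 in AP20187 livers, against 1.62, 1.61, 1.61 and 1.87 in untreated livers. The groups stood well apart, and 3 of the 4 untreated values nearly coincided. Pygl fell by 0.74 ± 0.08 on the log2 scale (SE, limma, adjusted p = 0.000402), and its mean was 0.985 ± 0.0526 in AP20187 livers and 1.68 ± 0.128 in untreated livers (SD, n = 4 each).

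Phka2 encodes the liver alpha subunit of phosphorylase kinase, a regulatory subunit. Its probe set 1434518_at had ratios of 1.11, 0.98, 0.86 and 1.02 in AP20187 livers, against 2.24, 2.05, 2.03 and 2.06 in untreated livers. No untreated array came near an AP20187 array, and the log2 difference was -1.05 ± 0.09 (SE, limma, adjusted p = 0.000173). The other Phka2 probe set, 1430492_at, gave a different picture, with ratios between 0.37 and 1.08 in AP20187 livers and between 0.43 and 0.93 in untreated livers. Its spread within each group was wide, its 95% interval ran between -0.91 and 0.90 on the log2 scale, and it did not pass (limma, adjusted p = 0.994). The files do not say which transcripts each probe set reads.

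Phkg2, the catalytic subunit of the liver kinase, had ratios of 1.0, 1.0, 0.85 and 0.89 in AP20187 livers, against 1.18, 1.06, 1.40 and 1.36 in untreated livers. The highest AP20187 array stayed below the lowest untreated array. The log2 difference was -0.40 ± 0.11 (SE, limma, adjusted p = 0.0271), and the call ended without untreated replicate 3 or 4 or AP20187 replicate 3 or 4 (adjusted p 0.0591 to 0.0742) and after quantile normalization (0.103).

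Among the regulators, Ppp1r3c, which encodes the phosphatase-targeting subunit also called PTG, was lower on both probe sets. On 1433691_at the ratios were 1.21, 0.92, 0.68 and 1.08 in AP20187 livers, against 1.49, 1.66, 1.58 and 1.82 in untreated livers. On 1425631_at they were 1.22, 0.85, 0.57 and 1.15 in AP20187 livers, against 1.43, 1.53, 1.46 and 1.64 in untreated livers. AP20187 replicate 3 was the lowest array on both, and neither probe set had overlapping groups. The log2 differences were -0.75 ± 0.17 and -0.70 ± 0.22 (SE, limma, adjusted p = 0.00972 and 0.0371). The call of 1425631_at ended without any 1 untreated array or AP20187 replicate 2 (adjusted p 0.0652 to 0.0891) and after median centring (0.0562). Its highest adjusted p over all alternatives was 0.168 (limma). The call of 1433691_at stayed in every leave-one-out fit and ended after quantile normalization (adjusted p = 0.0702).

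Gsk3b, the kinase that inhibits glycogen synthase, had ratios of 1.61, 1.88, 1.03 and 0.90 in AP20187 livers, against 0.41, 0.91, 0.81 and 0.38 in untreated livers. The groups overlapped narrowly, since AP20187 replicate 4 lay below untreated replicate 2. The log2 difference was 1.08 ± 0.35 (SE, limma, adjusted p = 0.0428), and it no longer passed without untreated replicate 1 or 4 or AP20187 replicate 1, 2 or 3 (adjusted p 0.0546 to 0.115).

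Gys2, Pygl and Phka2 1434518_at passed in every one of the 15 alternative fits of this comparison. Without AP20187 replicate 4, whose source name gives no treatment, 2 probe sets were higher and 4 lower. After median centring of the arrays 5 probe sets remained called lower, where 4109 of all 22626 probe sets were lower. After quantile normalization 3 remained, where 3473 of all 22626 were lower. Markers of hepatocytes moved as well. Of 17 hepatocyte probe sets of 9 genes 11 fell and 3 rose, all of Hnf4a, with a median log2 difference of -0.38, and the median log2 ratio of the list on an array lay between -0.06 and 0.10 in AP20187 livers and between 0.29 and 0.46 in untreated livers. Of the probe sets of other cell types, 8 of 13 for stellate cells and fibroblasts, 5 of 10 for macrophages and 3 of 7 for endothelium fell. The 5 for macrophages became 2 without untreated replicate 3, and 3 without untreated replicate 1 or 4 or AP20187 replicate 1, 2 or 3. In the smaller lists 1 of 5 for lymphocytes fell, 1 of 5 for cholangiocytes rose, and 0 of 5 for skeletal muscle and 0 of 3 for adipocytes passed by limma, with 1 and 0 at an unadjusted p under 0.05. The log2 ratio of the 3′ over the 5′ control probe set of beta-actin, a measure of RNA quality, was -0.04 to 0.15 in AP20187 livers and -0.18 to -0.02 in untreated livers, and that of Gapdh was -0.14 to 0.19 in AP20187 livers and -0.06 to -0.01 in untreated livers. The part of these shifts in the glycogen results was not tested.

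The second comparison asks how the glycogen genes differed between diets. In HFD livers Gys2, Gbe1 and Ugp2 were higher than in LFD livers, and Ppp1r3c was lower, in both genotypes. Averaged over genotypes 7 of the 14 probe sets rose (Gys2, Gbe1 and all 5 of Ugp2), 2 fell (both of Ppp1r3c) and 5 did not pass (limma, Benjamini-Hochberg). Over all probe sets 27.5% passed, 13.5% higher and 14.0% lower. The median log2 difference of the 14 was 0.57, against -0.07 over all probe sets, and the 4 HFD arrays did not overlap the 4 LFD arrays on 10 of the 14, against 28.8% of all probe sets. The 5 Ugp2 probe sets, which read 1 gene, are among these 10, and the calls came from 4 of the 8 measured genes. These 7 and 2 calls were kept under every alternative, with 7 to 8 higher and 2 lower whichever array was left out.

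**Figure D2:**
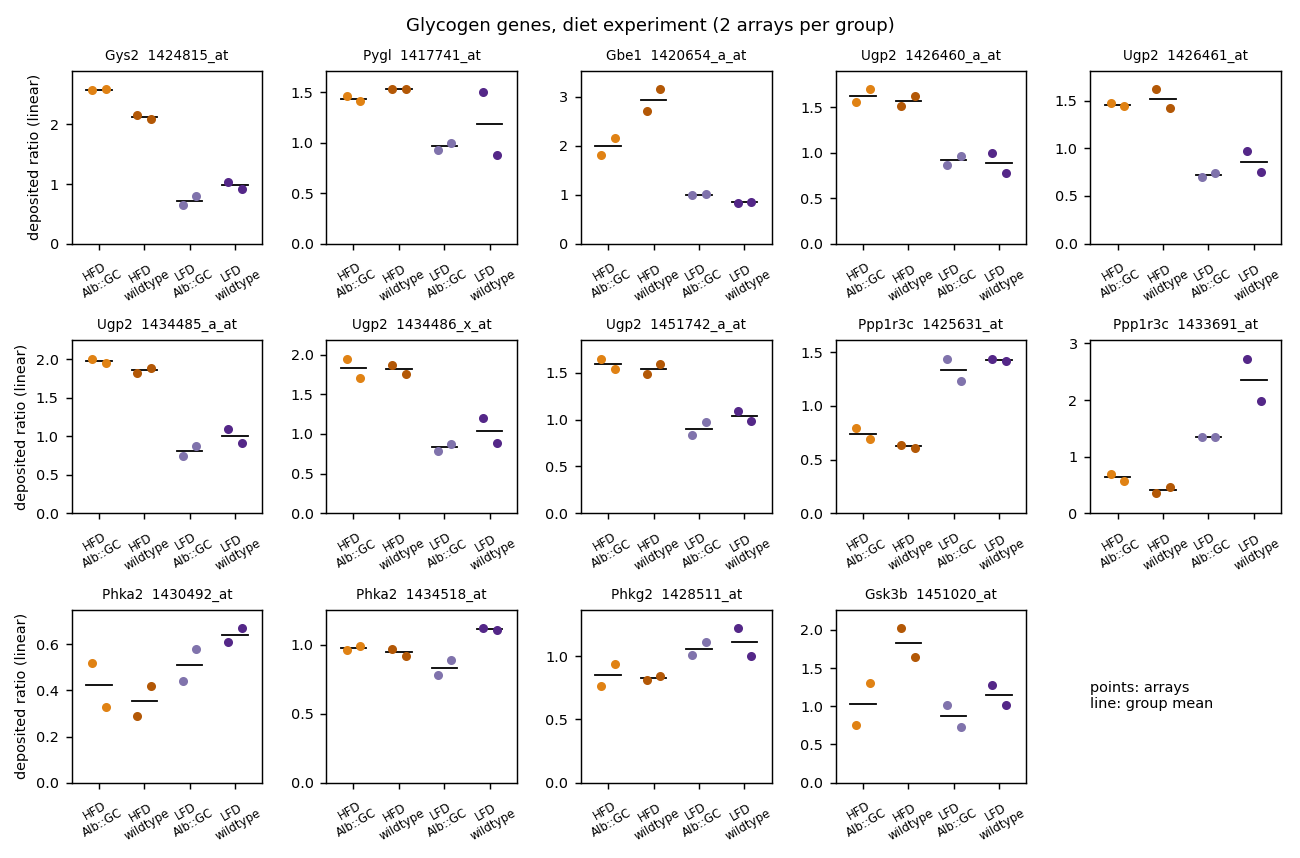
Deposited ratio (linear axis) of each glycogen probe set in HFD Alb::GC, HFD wildtype, LFD Alb::GC and LFD wildtype livers (n = 2 each), with points for arrays and a line for the group mean. Gys2, Gbe1 and the Ugp2 probe sets stand higher in the HFD groups than in the LFD groups, and both Ppp1r3c probe sets stand lower.

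Gys2 had ratios of 2.57 and 2.59 in HFD Alb::GC livers, 2.15 and 2.09 in HFD wildtype livers, 0.64 and 0.80 in LFD Alb::GC livers and 1.04 and 0.92 in LFD wildtype livers. All 4 HFD arrays were above all 4 LFD arrays. Gys2 rose by 1.78 ± 0.15 in Alb::GC livers and by 1.08 ± 0.15 in wildtype livers (log2, SE; limma, adjusted p = 0.00754 and 0.012), and by 1.43 ± 0.11 averaged over genotypes (adjusted p = 0.00143).

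Gbe1 had ratios of 1.81 and 2.17 in HFD Alb::GC livers, 2.71 and 3.16 in HFD wildtype livers, 0.99 and 1.02 in LFD Alb::GC livers and 0.84 and 0.86 in LFD wildtype livers. HFD wildtype arrays were the highest and LFD wildtype arrays the lowest. Gbe1 rose by 0.95 ± 0.15 in Alb::GC livers and by 1.73 ± 0.15 in wildtype livers (log2, SE; limma, adjusted p = 0.0271 and 0.00593), the second being a 3.31-fold difference of (ratio + 0.05).

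Over its 5 probe sets Ugp2 had ratios of 1.44 to 2.01 in HFD Alb::GC livers, 1.42 to 1.89 in HFD wildtype livers, 0.70 to 0.97 in LFD Alb::GC livers and 0.75 to 1.20 in LFD wildtype livers. Every HFD value was above every LFD value of this gene. The log2 differences were 0.79 to 1.24 in Alb::GC livers (limma, adjusted p 0.0131 to 0.0406) and 0.55 to 0.87 in wildtype livers (0.0186 to 0.0452), and 0.67 to 1.06 averaged over genotypes (0.0028 to 0.00706).

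Pygl had ratios of 1.46 and 1.41 in HFD Alb::GC livers, 1.53 and 1.53 in HFD wildtype livers, 0.93 and 1.0 in LFD Alb::GC livers and 1.5 and 0.88 in LFD wildtype livers. The first LFD wildtype array stood among the HFD arrays, apart from the other LFD arrays. The averaged difference was 0.47 ± 0.17 and did not pass (log2, SE; limma, adjusted p = 0.0802). With 1 array left out in turn this difference was 0.29 to 0.66, lowest without LFD wildtype replicate 2 and highest without LFD wildtype replicate 1. The result for Pygl therefore rests on which of these 2 arrays is kept.

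No phosphorylase kinase subunit passed between diets. Phkg2 had ratios of 0.76 and 0.94 in HFD Alb::GC livers, 0.81 and 0.84 in HFD wildtype livers, 1.01 and 1.11 in LFD Alb::GC livers and 1.22 and 1.0 in LFD wildtype livers. All 4 HFD arrays lay below all 4 LFD arrays, with an averaged difference of -0.35 ± 0.13 (log2, SE; limma, adjusted p = 0.0914). The averaged difference of Phka2 was -0.01 ± 0.11 on 1434518_at (limma, adjusted p = 0.969) and -0.52 ± 0.30 on 1430492_at (0.231).

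Averaged over genotypes, Ppp1r3c had the largest difference of the 14 probe sets. On 1433691_at it had ratios of 0.70 and 0.57 in HFD Alb::GC livers, 0.36 and 0.46 in HFD wildtype livers, 1.35 and 1.35 in LFD Alb::GC livers and 2.73 and 1.99 in LFD wildtype livers. On 1425631_at the ratios were 0.79 and 0.69 in HFD Alb::GC livers, 0.64 and 0.61 in HFD wildtype livers, 1.44 and 1.23 in LFD Alb::GC livers and 1.44 and 1.42 in LFD wildtype livers. Both probe sets separated the diets without overlap, but only on the first did the LFD genotypes stand apart. Averaged over genotypes they fell by 1.71 ± 0.16 and 0.97 ± 0.11 (log2, SE; limma, adjusted p = 0.00251 and 0.00428). In wildtype livers alone the first fell by 2.38 ± 0.22 (limma, adjusted p = 0.00599), a 5.21-fold lower value of (ratio + 0.05). The second fell less there, at -1.13 ± 0.16 (log2, SE, limma, adjusted p = 0.0124), a 2.19-fold lower value.

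Gsk3b had ratios of 0.75 and 1.30 in HFD Alb::GC livers, 2.02 and 1.64 in HFD wildtype livers, 1.01 and 0.73 in LFD Alb::GC livers and 1.28 and 1.01 in LFD wildtype livers. The HFD wildtype arrays were the highest, and the other groups overlapped. The averaged difference of 0.42 ± 0.21 did not pass (log2, SE; limma, adjusted p = 0.175).

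Within a single genotype the same 7 probe sets were higher and the same 2 lower. Of all probe sets 6.77% passed in Alb::GC livers, 4.64% higher and 2.13% lower, and 14.6% in wildtype livers, 7.97% higher and 6.63% lower. These within-genotype calls rest on each array. In wildtype the number higher was 0 to 7 and the number lower 0 to 2 when 1 array was left out, with 0 of each without HFD wildtype replicate 2 and 2 and 2 without LFD wildtype replicate 2, the array of uncertain label. In Alb::GC 0 to 8 were higher and 0 lower, with 0 higher without HFD Alb::GC replicate 2.

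RNA quality moved with diet, beside every glycogen result of this comparison. The log2 ratio of the 3′ over the 5′ control probe set of beta-actin was -0.44 to -0.33 in HFD Alb::GC livers, -0.71 to -0.62 in HFD wildtype livers, -0.16 to 0.18 in LFD Alb::GC livers and -0.03 to 0.21 in LFD wildtype livers. For Gapdh it was -0.23 to -0.15 in HFD Alb::GC livers, -0.31 to -0.22 in HFD wildtype livers, 0.04 to 0.16 in LFD Alb::GC livers and 0.16 to 0.22 in LFD wildtype livers. On both controls all HFD arrays lay below all LFD arrays, and the part of this in the glycogen results was not tested. Of 17 hepatocyte probe sets 3 rose and 6 fell between diets averaged over genotypes. With any 1 array left out 0 to 3 fell, the 0 being without HFD wildtype replicate 1. Among markers of other cells, 1 of 5 cholangiocyte probe sets rose and 2 fell, 2 of 13 for stellate cells and fibroblasts and 1 of 5 for skeletal muscle fell, and 1 of 10 for macrophages and 1 of 7 for endothelium rose. Of 3 for adipocytes and 5 for lymphocytes 0 passed by limma, with 0 and 1 at an unadjusted p under 0.05. The part of these markers in the glycogen results was not tested.

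The third comparison asks whether the Alb::GC transgene altered these genes. None of the 14 probe sets passed between Alb::GC and wildtype livers by limma with Benjamini-Hochberg adjustment: 0 on HFD, 0 on LFD and 0 averaged over diets, with 3, 3 and 1 at an unadjusted p under 0.05. Of all probe sets 0.133% passed on HFD (30 of 22626) and 0 passed on LFD or averaged over diets, with 2525, 2337 and 2596 at an unadjusted p under 0.05. The largest differences on HFD were those of Gsk3b at -0.85 ± 0.30 and Ppp1r3c 1433691_at at 0.58 ± 0.22, and Gbe1 had the smallest p, at -0.55 ± 0.15 (log2, SE; limma, adjusted p = 0.369, 0.414 and 0.264). The 95% interval for Gbe1, -0.92 to -0.18, does not show that the genotypes were alike. On LFD Ppp1r3c 1433691_at stood at -0.77 ± 0.22, with an interval of -1.30 to -0.23, and Gys2 at -0.43 ± 0.15 (limma, adjusted p = 0.364 and 0.432).

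The test of whether the diet difference itself differed between genotypes gave 0 of 14 glycogen probe sets and 0 of 22626 in all, with 3 and 2517 at an unadjusted p under 0.05 (limma, interaction term). For Ppp1r3c 1433691_at the diet difference was less negative in Alb::GC than in wildtype livers by 1.34 ± 0.31, with an interval of 0.58 to 2.10 (log2, SE; limma, adjusted p = 0.23). The other Ppp1r3c probe set gave 0.32 ± 0.23 (adjusted p = 0.64). Gbe1 gave -0.78 ± 0.22 and Gys2 gave 0.70 ± 0.21 (limma, adjusted p = 0.294 and 0.33), so the genotype in which the point estimate of the diet difference was larger was not the same for these enzymes.

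AP20187 and the high fat diet can be set side by side, since the 2 experiments share no arrays, but each difference is relative to its own controls and no test compares them. Gys2 stood at 1.02 with AP20187 and at 1.43 with HFD averaged over genotypes, and Ppp1r3c 1433691_at at -0.75 and -1.71. Gbe1 was at -0.34 with AP20187 and 1.34 with HFD, and the 5 Ugp2 probe sets were at -0.43 to -0.29 with AP20187 and 0.67 to 1.06 with HFD. The AP20187 call of Gbe1 ended after median centring or quantile normalization, and that of Ppp1r3c 1433691_at after quantile normalization. Only 3 of the 5 Ugp2 probe sets passed with AP20187, each close to the threshold. Pygl was at -0.74 with AP20187 and 0.47 with HFD, the second of which did not pass.

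**Figure D3:**
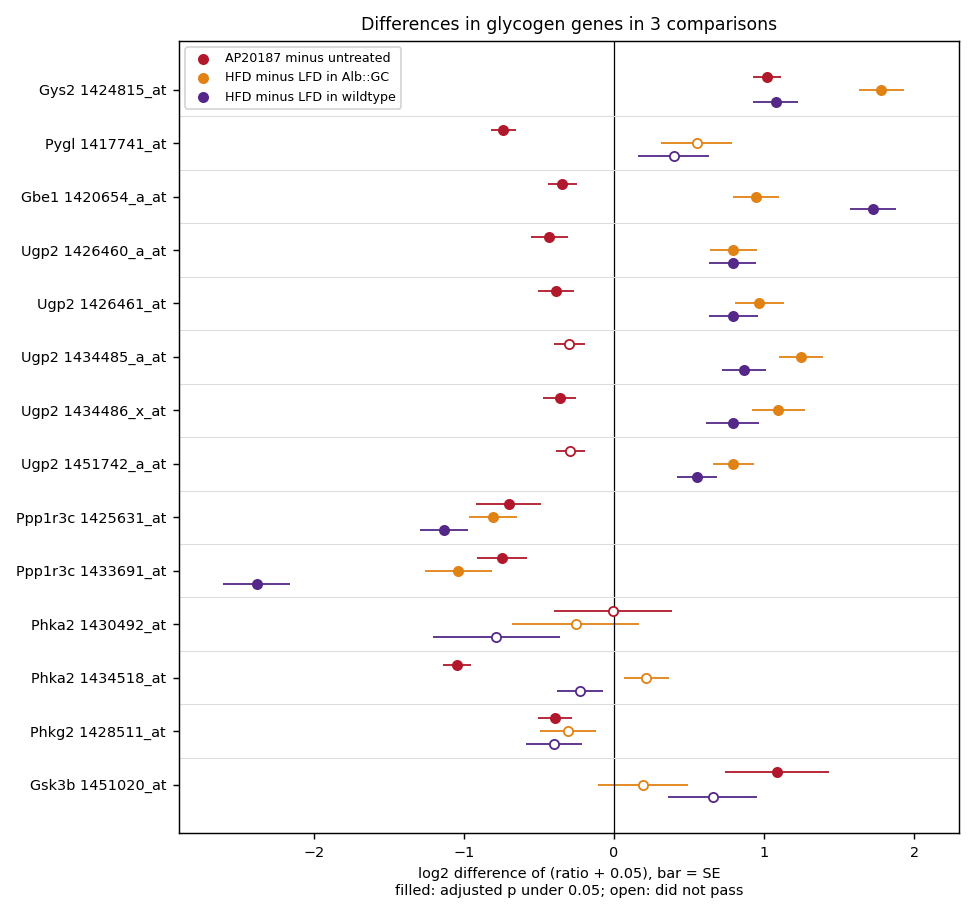
Log2 difference of (ratio + 0.05) for each glycogen probe set in AP20187 minus untreated, HFD minus LFD in Alb::GC and HFD minus LFD in wildtype livers, with bars for the SE and filled points where the adjusted p was under 0.05. Gys2 lies right of 0 and both Ppp1r3c probe sets left of 0 in all 3 comparisons, while Gbe1 and Ugp2 lie on opposite sides with AP20187 and with HFD.

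Probe sets of a gene can be set against each other as a measure of how well these arrays read it. The 5 of Ugp2 gave log2 differences between -0.43 and -0.29 with AP20187, and both of Ppp1r3c fell in the AP20187 comparison and in the averaged diet comparison. The size of the Ppp1r3c fall with HFD in wildtype livers differed between them, at -2.38 on 1433691_at and -1.13 on 1425631_at. The pair for Phka2 disagreed with AP20187, as described above.

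Of 45 further genes of glycogen metabolism and its hormonal control, 32 were measured, with 49 probe sets. In AP20187 livers 4 of these probe sets rose, 12 fell and 33 did not pass (limma, Benjamini-Hochberg), with a median of -0.15 on the log2 scale. The 16 called make 32.7% of the list, near the 34.1% of all probe sets, and its median was near the -0.13 of all probe sets. The largest difference was that of Stbd1, a protein that binds glycogen and links it to membranes, with ratios of 0.91, 1.03, 1.32 and 0.97 in AP20187 livers, against 0.28, 0.23, 0.29 and 0.31 in untreated livers. Every AP20187 array was far above the untreated arrays, and the log2 difference was 1.75 ± 0.22 (SE, limma, adjusted p = 0.000634).

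Prkag2, a regulatory subunit of the AMP-activated kinase that has a glycogen-binding partner subunit, rose on 2 of its 3 probe sets, by 1.07 ± 0.14 and 0.93 ± 0.14 (log2, SE; limma, adjusted p = 0.000703 and 0.00144), and the other stood at 0.71 (0.0589). Phka1, the muscle alpha subunit of phosphorylase kinase, fell on all 3 of its probe sets, with the largest at -1.48 ± 0.41 and -1.28 ± 0.30 (adjusted p = 0.0253 and 0.0123). The larger of these lost its call under 2 of 15 alternatives, without untreated replicate 1 or 4. The third, 1435567_at at -0.32, lost it under 5 of 15 (adjusted p up to 0.279).

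Prkaca, the catalytic subunit of protein kinase A, which activates phosphorylase kinase, had ratios of 0.94, 0.83, 1.06 and 1.06 in AP20187 livers, against 2.12, 1.65, 2.20 and 2.22 in untreated livers. The groups did not overlap, and the log2 difference was -1.03 ± 0.13 (SE, limma, adjusted p = 0.000618). The glucagon receptor Gcgr stood at -0.73, and Ppp1ca, a catalytic subunit of protein phosphatase 1, at -0.90 ± 0.10 (adjusted p = 0.000429), and both fell. Phkb, the beta subunit of phosphorylase kinase, fell by 0.41, a call lost under 3 of 15 alternatives. Of the 8 genes on the breakdown side of this list, with 12 probe sets, 6 probe sets fell and 1 rose, where 20.4% of all probe sets were lower and 13.7% higher. The 6 came from 4 genes, with 3 of them from the muscle subunit Phka1. The gene that rose was the glucose 6-phosphate transporter Slc37a4, at 0.40. Of the 6 that fell, 5 lost their call under at least 1 of 15 alternatives, Pygb, the brain phosphorylase, under 3 and G6pc, the glucose 6-phosphatase, under 1.

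Between diets, 10 of the 49 probe sets rose, 4 fell and 35 did not pass averaged over genotypes, with a median of 0.00. The 14 called make 28.6% of the list, near the 27.5% of all probe sets. The 4 lower became 2 without LFD wildtype replicate 1, without either LFD Alb::GC array or without either HFD wildtype array, and 3 without any other array. Prkag2 rose on all 3 of its probe sets, most on 1423832_at at 1.70 ± 0.17 (log2, SE; limma, adjusted p = 0.00283). Prkar2a, a regulatory subunit of protein kinase A, rose by 1.28 ± 0.15 (adjusted p = 0.00406), whereas with AP20187 it fell by 0.73. G6pc, which releases free glucose from the liver, had ratios of 0.68 and 0.68 in HFD Alb::GC livers, 0.43 and 0.53 in HFD wildtype livers, 1.17 and 1.23 in LFD Alb::GC livers and 1.35 and 1.41 in LFD wildtype livers. Each HFD array was below each LFD array, and G6pc fell by 1.11 ± 0.14 (log2, SE; limma, adjusted p = 0.00481).

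The insulin receptor Insr fell on 1 of its 2 probe sets, at -0.88 ± 0.16 (log2, SE; limma, adjusted p = 0.0143), and the other was at -0.76 (0.0587). Ppp1cb, another catalytic subunit of the phosphatase, rose on 2 of its 4 probe sets, at 0.97 and 0.59, and the smaller of these lost its call under 7 of 14 alternatives. Hexokinase Hk1, which starts glucose use in many tissues, rose on 1420901_a_at at 1.83 ± 0.32 (adjusted p = 0.012), but its other probe set was at -0.11 (0.771). Between Alb::GC and wildtype livers 0 of the 49 passed on HFD, on LFD, averaged over diets or for the interaction by limma with Benjamini-Hochberg adjustment, with 2, 4, 4 and 5 at an unadjusted p under 0.05.

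**Figure D4:**
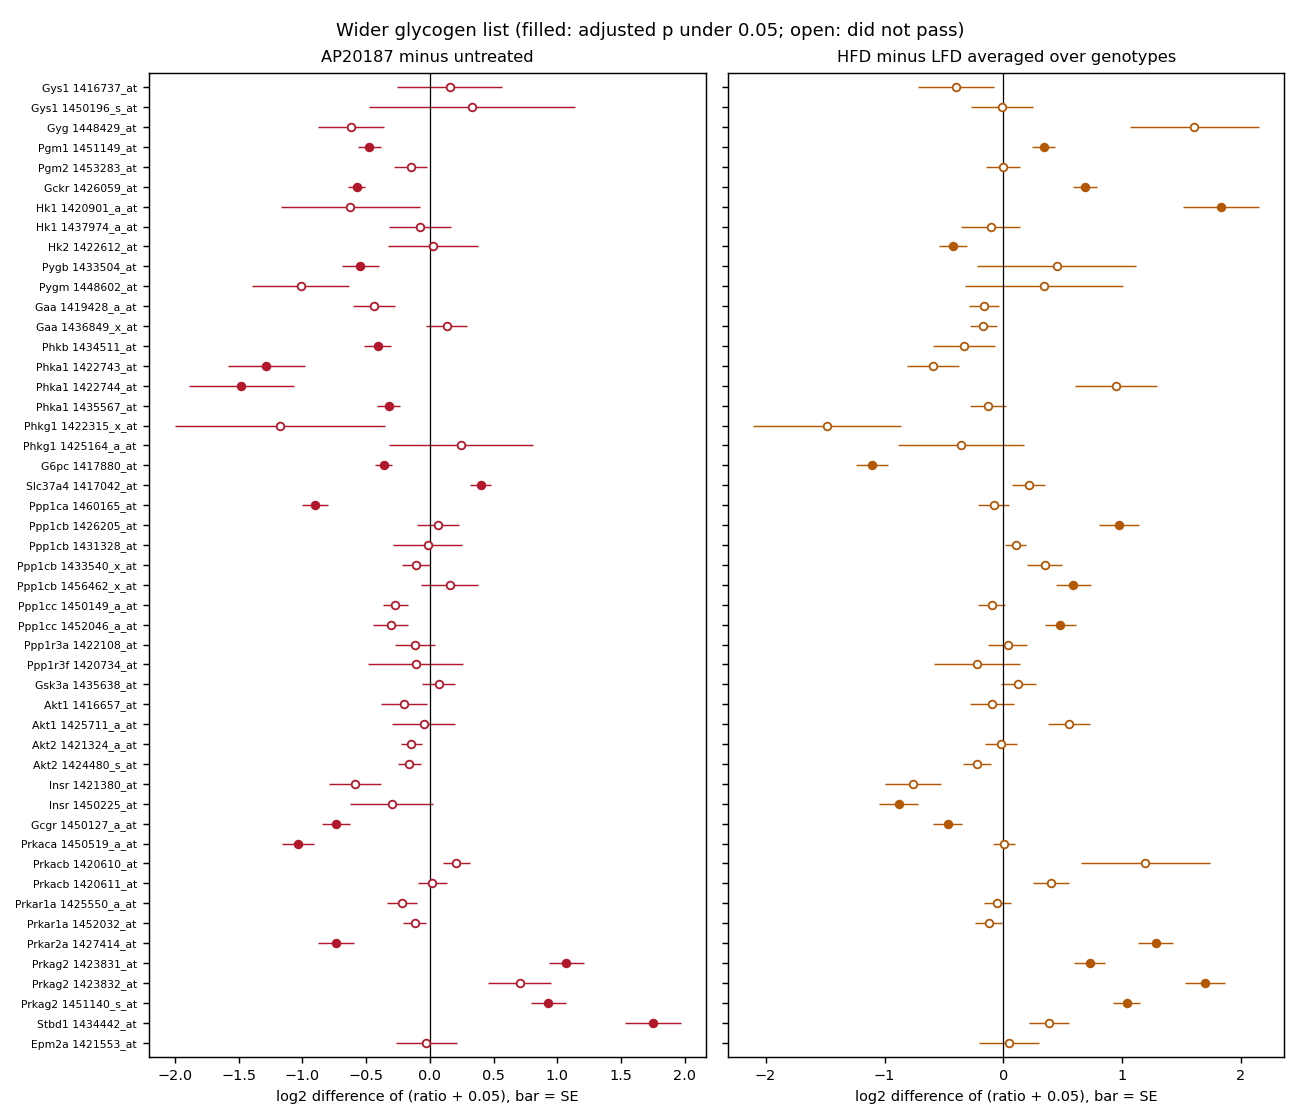
Log2 difference of (ratio + 0.05) for each probe set of the wider glycogen list, AP20187 minus untreated on the left and HFD minus LFD averaged over genotypes on the right, with bars for the SE and filled points where the adjusted p was under 0.05. Stbd1 lies farthest right with AP20187 at 1.75, and Prkag2 lies right of 0 in both panels.

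The probe sets whose pattern over the 8 arrays of an experiment lay nearest to each glycogen probe set were read off by Pearson correlation, as a description over arrays that share 2 or 4 groups and with no test. Gys2 was nearest to Nr1d2 (r = 0.997), Tmem140 (0.995) and Mthfd2 (0.994) in the AP20187 experiment, and to Tecpr1 (0.996), Arf1 (0.995) and Trib1 (0.995) in the diet experiment. Pygl was nearest to Cyp2c29, Opa1 and Higd2a with AP20187 (each r = 0.998). In the diet experiment Ugp2 1434485_a_at was nearest to Trib1 (0.998) and Gys2 (0.995), while Gys2 was not among the nearest 3 of the other 4 Ugp2 probe sets. Gbe1 was nearest to Aplp2 (0.997). Ppp1r3c 1433691_at was nearest to Tmem30b (0.996) and Ninj1 (0.994).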

How the data were processed

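Total liver RNA was hybridised to Affymetrix arrays, 1 sample per array, per the labels. The deposited table holds a linear ratio around 1 per probe set and array, with 2 decimals. The divisor, the software and the genome build of the authors' processing were not stated by any label or header.

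Control probe sets (64) were left out. Log2(ratio + 0.05) was fitted with limma 3.58.1 in R 4.3.3 (lmFit and eBayes with a mean-variance trend), each experiment on its own, with p-values adjusted by Benjamini-Hochberg over 22626 probe sets and a threshold of 0.05. A difference is on this scale, which understates the change of low ratios. The diet fit shares 1 spread over 4 groups. Few arrays limit the precision. Replicate arrays had 1.44 to 2.46% equal values and log2(ratio + 0.05) values correlated by 0.442 to 0.658, so none was taken as a duplicate. The scripts were tested on simulated data.

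All glycogen probe sets are named, and of the wider list up to 6 called, non-overlapping genes per comparison by size; others named from that list (Pygb, Phkb, Slc37a4) were chosen after their values were seen. The members and lists were chosen with earlier results of these data known. Alternatives were other offsets (0.01, 0.2), median centring, quantile normalization, no trend, a filter of low ratios (0.1), array weights, only the groups compared, and each array left out. Figures were drawn with matplotlib 3.10.9.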

Additional observations from a re-analysis of the deposited data

Results flagged for a closer look

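In 3 of the 28 sets of 4 arrays examined (14 glycogen probe sets in AP20187 and in untreated livers), 1 array lay far from the other 3, with its gap to the nearest neighbour, divided by the whole range of the set above the 95% critical value of Dixon's test. Chance alone gives about 1 in 20. For Pygl in untreated livers the share was 0.962, since replicate 4 stood at 1.87 and the others at 1.61 to 1.62. Without it Pygl still differed, at -0.69 (limma, adjusted p = 0.00137). For Ugp2 1434486_x_at in AP20187 livers the share was 0.917, with replicate 3 at 0.72 and the others at 0.83 to 0.84, and without that array the difference of -0.31 no longer passed (adjusted p = 0.0612). For Phka2 1434518_at in untreated livers the share was 0.857, with replicate 1 at 2.24 and the others at 2.03 to 2.06, and without it the difference was -1.01 (adjusted p = 0.0011).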

How the results depend on the processing

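No paired analysis was possible because array titles run on across groups and no replicate number is shared between groups. Of 1638 recomputed values of glycogen probe sets, 1476 kept direction and call, 153 lost the call and 9 gained it. None that was called changed sign, and 51 that were not called did. Of 586 values of called probe sets of the wider list, 108 lost the call and 0 changed sign.

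With AP20187 the lower glycogen probe sets numbered 5 after median centring, with 4109 lower over all probe sets. After quantile normalization they numbered 3, with 3473 lower over all. Leaving out 1 array gave 1 to 2 higher and 3 to 7 lower, and 2433 to 2922 higher and 3729 to 4626 lower over all probe sets. For HFD in wildtype, quantile normalization gave 848 lower over all, and fitting only the groups compared gave 2 higher and 1 lower glycogen probe sets and 760 and 197 over all. Leaving out 1 array gave 0 to 7 and 0 to 2 glycogen probe sets, and 37 to 1627 and 10 to 963 over all. For HFD in Alb::GC, the fit without a trend gave 1 lower glycogen probe set and the fit of only the groups compared gave 0 of any kind, where few residual degrees of freedom remain. Leaving out 1 array gave 0 to 8 higher and 0 lower, and 14 to 1288 and 4 to 392 over all. For HFD averaged over genotypes it gave 7 to 8 and 2 to 2, and 1730 to 2993 and 1546 to 2042 over all. For Alb::GC on HFD, over all probe sets, the offset 0.01 gave 14 lower, the offset 0.2 gave 35 lower, no trend gave 5 higher and 10 lower, and 0 passed after quantile normalization, in the fit of only the groups compared and in each fit without 1 array. The interaction had 1 higher and 4 lower without a trend. The cause of these shifts was not tested.

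Precision is limited by 2 arrays per diet group and by ratios of unstated reference, which carry no signal over background.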
